A study of Mus musculus with 12 samples.

Results

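Transcript abundance of 9 genes that build or anchor the hemidesmosome was followed across 12 cultures of prostate organoids, small 3-dimensional structures that epithelial cells form in a gel. The genes were Itga6, Itgb4, Cd151, Col17a1, Dst, Plec, Lama3, Lamb3 and Col7a1, each found by its gene symbol, and they were 9 of the 24674 genes in the deposited table. The organoids were derived from basal cells of wildtype C57BL/6 mice, and every culture had the same genotype. They were treated with vehicle, with UK5099, with butyrate, or with UK5099 and butyrate together (the combination), with 3 samples per group. UK5099 is an inhibitor of the carrier through which pyruvate enters mitochondria. Butyrate is a short-chain fatty acid that blocks histone deacetylases. The basal cells that founded the cultures were sorted for high CD49f, which is the protein of Itga6, so the presence of this transcript follows in part from the sort. The labels name no separate animal for each sample, so p-values measure only the spread between these samples.

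The hemidesmosome is the junction that holds a basal epithelial cell to the basement membrane. At its core the integrin α6β4 and the transmembrane collagen XVII bind laminin-332 outside the cell, and the plakins plectin and BP230 bind keratin filaments inside it. Laminin-332 is in turn tied to the tissue beneath by anchoring fibrils of collagen VII. In the prostate, the hemidesmosome is a feature of the basal cells, which lie on the basement membrane, rather than of the luminal cells that line the gland.

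The values were TPM, abundances scaled by gene length and to one total per sample. Depth was between 33252113 and 43499512 fragments per sample, and each of the 9 genes had at least 2910 fragments in each sample. The coefficient of variation between the 3 replicates of a group lay between 0.692% and 6.4% over the 9 genes. UK5099 replicate 1 and combination replicate 1 stood further from the other samples of their groups than any other replicate did. A coefficient below is a difference in log2(TPM + 1) from a limma fit over all genes, and a gene is said to have risen or fallen where its adjusted p-value was under 0.01. A gene is said to be called where its coefficient also exceeded 1 in size. TPM are shares of a total, and the median coefficient over the 13345 genes averaging 1 TPM or more was −0.12 with UK5099, −0.30 with butyrate and −0.41 for both drugs. Coefficients are therefore also given after median of ratios scaling, which brings that median to within 0.01 of 0 in each comparison.

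Markers of cell types were summed to see what the cultures held. The 5 basal markers (Krt5, Krt14, Krt15, Trp63 and Itga6 itself) summed to between 6530 and 6660 TPM in vehicle, 13500 and 13900 in UK5099, 6920 and 7160 in butyrate and 9980 and 10400 in combination samples. The luminal markers Krt8, Krt18, Krt19, Cd24a and Prom1, 5 of 6 sought, summed to between 4620 and 4800 TPM in vehicle, 2740 and 2890 in UK5099, 2690 and 2730 in butyrate and 1690 and 1910 in combination samples. The basal sum hides differences between its genes. With butyrate Krt5 (0.77) and Trp63 (0.60) rose, while Krt14 (−0.27), Krt15 (−0.32) and Itga6 (−0.19) fell as deposited. After scaling Krt14, Krt15 and Itga6 were at 0.09, 0.04 and 0.16. With the combination Krt15 fell (−0.65) and the other 4 rose. Basal and luminal markers thus moved with the treatments, and their part in the results that follow was not tested. In bulk samples, fewer cells of a type and less RNA per cell cannot be told apart. Schwann cells and skeletal muscle also use some of these genes, and their 4 markers each summed to at most 1.45 and 0.0293 TPM, the latter from the 2 markers in the table. Endothelial and smooth muscle markers summed to at most 0.0426 and 0.222 TPM. The fibroblast markers summed to 2.27 to 2.88 TPM outside the butyrate group and to 10.6 to 11 TPM in it, of which Dcn held 9.51 TPM on average. The leukocyte list held 2 of its 4 markers, and its sum, 23.8 to 97.1 TPM, came from Cd68, while the defining marker Ptprc averaged at most 0.00163 TPM.

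To compare levels between genes, TPM were recomputed with exonic length, because the deposited values divide by the whole span of a gene with its introns. This length joins the exons of all forms of a gene, 41155 bp for Dst. The level of a gene that uses a shorter form is thus understated, and its place in the order depends on the length chosen. On this scale and with vehicle, Itgb4 was the most abundant of the 9 genes at 553 ± 4.18 (SD, n = 3). Lamb3 followed at 428 ± 2.73, Lama3 at 306 ± 3.78, Itga6 at 268 ± 2.59 and Col17a1 at 254 ± 3.45. Cd151 was at 181 ± 2.68, Plec at 133 ± 1.97, Col7a1 at 124 ± 2.95 and Dst at 35.9 ± 1.12. Neighbours in this order did not overlap between samples. In each of the 3 treated groups Col17a1 took the first place, at 859 ± 17.3 in UK5099, 487 ± 3.58 in butyrate and 850 ± 37.0 in combination samples (SD, n = 3 each). Itgb4 was then the second in each group. Col7a1 fell to the last place, below Dst, with butyrate and with the combination. Within the treated groups, the neighbours whose samples overlapped were Itga6 and Lamb3 with UK5099, Cd151 and Plec with UK5099, and Plec and Cd151 with the combination.

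**Figure D1:**
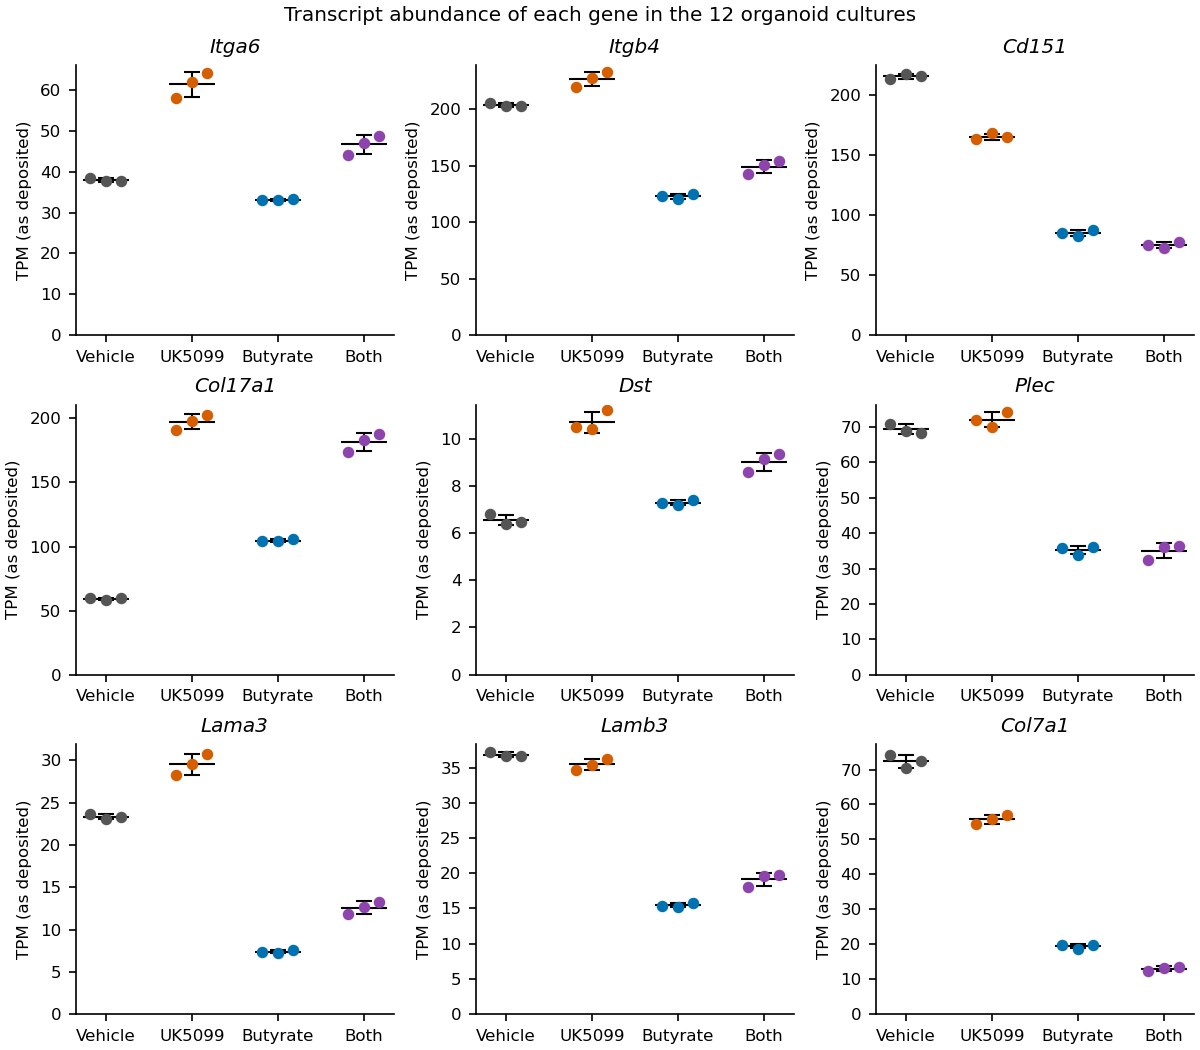
Deposited TPM of each gene (vertical axis, from 0) in the 4 groups, with 1 point per culture, a bar at the mean of 3 and whiskers of 1 SD; "Both" is the combination. Col17a1 was lowest with vehicle, whereas Cd151 and Col7a1 were highest there and Plec and Lamb3 were low in both groups given butyrate.

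Both genes of the laminin-binding integrin α6β4 were measured at high depth. Itga6, which encodes the α6 subunit (chromosome 2, 71575960 to 71688760, plus strand; here and below coordinates are those of the deposited table, which names no genome build), was at 38.5, 37.7 and 37.8 TPM with vehicle. It reached 58.1, 61.9 and 64.2 TPM with UK5099, was 33.0, 33.0 and 33.4 TPM with butyrate, and was 44.2, 47.1 and 48.8 TPM with the combination. No 2 of the 4 groups overlapped. Itga6 rose with UK5099 by a coefficient of 0.68 ± 0.04 (SE, adjusted p = 1.01e-06) and with the combination by 0.29 ± 0.04 (adjusted p = 0.000142), and the scaled coefficients were 0.82 and 0.79. With butyrate it fell by 0.19 as deposited (adjusted p = 0.00258), but its coefficient was 0.16 after scaling (adjusted p = 0.00333), so its direction with butyrate depended on the scaling.

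Itgb4 encodes the β4 subunit, whose long cytoplasmic tail binds plectin (chromosome 11, 115865535 to 115899238, plus strand). Its values were 206, 203 and 203 TPM with vehicle, 220, 228 and 233 with UK5099, 123, 121 and 125 with butyrate, and 143, 151 and 154 with the combination. The UK5099 samples were the highest and the butyrate samples the lowest, with no overlap between any groups. Itgb4 rose slightly with UK5099 (0.15 ± 0.03, adjusted p = 0.00265), and it no longer passed when vehicle replicate 2 or 3 or UK5099 replicate 2 or 3 was left out. With butyrate it fell by 0.73 as deposited (adjusted p = 3.55e-08) and by 0.37 after scaling. With the combination it fell by 0.45 as deposited (adjusted p = 6.51e-07), but after scaling the coefficient was 0.06 and did not pass (adjusted p = 0.0641).

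Cd151 encodes a tetraspanin that associates with laminin-binding integrins (chromosome 7, 141047305 to 141051386, plus strand). It was at 213, 217 and 216 TPM with vehicle and at 163, 168 and 165 TPM with UK5099. Butyrate-treated cultures held 85.2, 82.8 and 87.7 TPM, and combination cultures 75.4, 72.2 and 77.2 TPM. Vehicle was the highest group and the combination the lowest, with no overlap. Cd151 fell in each comparison, with coefficients of −0.38 for UK5099 (adjusted p = 4.1e-06), −1.33 for butyrate (adjusted p = 6.86e-10) and −1.51 for the combination (adjusted p = 1.54e-10). After scaling they were −0.23, −0.97 and −1.01, so the direction held while the butyrate coefficient no longer exceeded 1 in size. Of the 9 genes it has the shortest span, 4082 bp.

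Col17a1 encodes collagen XVII, the transmembrane collagen also called BP180 (chromosome 19, 47634783 to 47680533, minus strand), and it showed the highest increase of the set. It was at 59.5, 58.4 and 59.6 TPM with vehicle and at 191, 198 and 203 TPM with UK5099, a 3.33-fold mean increase. Butyrate gave 104, 104 and 106 TPM, 1.76-fold the vehicle mean, and the combination gave 174, 183 and 188 TPM, 3.07-fold the vehicle mean. Every treated sample was above every vehicle sample. The coefficients were 1.72 ± 0.03 with UK5099 (adjusted p = 7.15e-10), 0.81 ± 0.03 with butyrate (adjusted p = 1.67e-08) and 1.60 ± 0.03 with the combination (adjusted p = 1.66e-10; SE in each case). After scaling they were 1.87, 1.16 and 2.10. Adding butyrate to UK5099 gave −0.12 as deposited (adjusted p = 0.00738) and 0.23 after scaling, so its direction was not fixed.

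The 2 plakins moved apart. Dst encodes dystonin, whose epithelial form is BP230 (chromosome 1, 33947306 to 34347742, plus strand), and other forms of the same gene serve nerve and muscle. Its values were 6.81, 6.39 and 6.46 TPM with vehicle, 10.5, 10.4 and 11.2 with UK5099, 7.29, 7.18 and 7.41 with butyrate, and 8.58, 9.13 and 9.34 with the combination, with no overlap between groups. Dst rose with UK5099 (0.63 ± 0.036, adjusted p = 8.16e-07) and with the combination (0.41 ± 0.036, adjusted p = 5.06e-06), with scaled coefficients of 0.76 and 0.86. The butyrate coefficient of 0.14 missed the threshold (adjusted p = 0.0105) as deposited and was 0.45 after scaling (adjusted p = 1.38e-06). The table gives 1 value for all forms of the gene, and an antisense RNA within its span, Gm26788, held fragments equal to 2.84% of those of Dst.

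Plec encodes plectin, which links the β4 tail to keratin (chromosome 15, 76055174 to 76116774, minus strand). It was at 70.9, 68.9 and 68.4 TPM with vehicle and at 72, 70.1 and 74.2 TPM with UK5099, and these groups overlapped. In the groups given butyrate it was at 35.7, 33.8 and 36.0 TPM and, with UK5099 added, at 32.5, 36.2 and 36.4 TPM, again overlapping. The UK5099 coefficient of 0.05 did not pass (95% CI −0.05 to 0.16, adjusted p = 0.397), though after scaling it was 0.21 (adjusted p = 0.00265). Plec fell by 0.96 with butyrate (adjusted p = 6.83e-08) and by 0.97 with the combination (adjusted p = 3.81e-08), and the scaled coefficients were −0.61 and −0.47. Adding UK5099 to butyrate changed it by −0.01 (95% CI −0.11 to 0.09, adjusted p = 0.954).

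The α3 and β3 chains of laminin-332, the ligand of α6β4, both fell with butyrate. Lama3 (chromosome 18, 12466876 to 12716070, plus strand) was at 23.7, 23.1 and 23.3 TPM with vehicle, 28.3, 29.6 and 30.7 with UK5099, 7.35, 7.26 and 7.59 with butyrate, and 11.8, 12.7 and 13.3 with the combination. Its groups did not overlap, and butyrate left 0.316 of the vehicle mean. Lama3 rose with UK5099 (0.32 ± 0.041, adjusted p = 0.00014), fell by 1.54 with butyrate (adjusted p = 2.19e-09), and fell by 0.84 with the combination (adjusted p = 5.04e-08). After scaling the values were 0.47, −1.20 and −0.36, in the same directions.

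Lamb3 (chromosome 1, 192890007 to 193026186, plus strand) was at 37.2, 36.6 and 36.7 TPM with vehicle and at 34.7, 35.4 and 36.2 TPM with UK5099. Butyrate-treated cultures held 15.4, 15.2 and 15.8 TPM, and combination cultures 18.1, 19.6 and 19.7 TPM. The vehicle and UK5099 samples lay close but did not overlap, and both groups given butyrate lay well below them. The UK5099 coefficient was −0.05 (95% CI −0.12 to 0.01, adjusted p = 0.192) as deposited and 0.09 after scaling (adjusted p = 0.0165), and passed in neither. Lamb3 fell by 1.20 with butyrate (adjusted p = 1.65e-09) and by 0.91 with the combination (adjusted p = 4.1e-09), with scaled coefficients of −0.86 and −0.42. The listed span of Lamb3 is 20.6 times its exonic length and contains 3 other genes, which together held fragments equal to 0.32% of those of Lamb3.

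Col7a1 encodes collagen VII of the anchoring fibrils (chromosome 9, 108782654 to 108813943, plus strand), and it had the largest decrease of the 9 genes with butyrate and with the combination. Its values were 74.1, 70.5 and 72.4 TPM with vehicle, 54.3, 55.8 and 57.0 with UK5099, 19.7, 18.7 and 19.7 with butyrate, and 12.3, 13.2 and 13.6 with the combination. The groups were ordered vehicle, UK5099, butyrate and combination, without overlap, and the combination left 0.181 of the vehicle mean. The coefficients of Col7a1 were −0.37 for UK5099 (adjusted p = 3.61e-05), −1.85 for butyrate (adjusted p = 5.77e-10) and −2.38 for the combination (adjusted p = 7.25e-11). The scaled coefficients were −0.22, −1.50 and −1.90. Col7a1 thus fell in all 3 treated groups, as Cd151 did, under both scalings.

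The promoters of the 2 collagen genes are shown because they mark the ends of the range, Col17a1 as the gene that rose most and Col7a1 as the one that fell most. Each window holds 250 bases before and 50 after a RefSeq start site on GRCm38.p6, a build whose coordinates are not those of the table, and 5 of the 9 genes (Cd151, Col17a1, Dst, Lamb3 and Col7a1) had such a window. Capitals mark matches on either strand to GGGCGG (the Sp1 motif) or CACCC (a KLF motif). The Col17a1 window is chr19:47691993-47692292 on the minus strand and the Col7a1 window is chr9:108953336-108953635 on the plus strand, both printed 5′ to 3′.
Col17a1: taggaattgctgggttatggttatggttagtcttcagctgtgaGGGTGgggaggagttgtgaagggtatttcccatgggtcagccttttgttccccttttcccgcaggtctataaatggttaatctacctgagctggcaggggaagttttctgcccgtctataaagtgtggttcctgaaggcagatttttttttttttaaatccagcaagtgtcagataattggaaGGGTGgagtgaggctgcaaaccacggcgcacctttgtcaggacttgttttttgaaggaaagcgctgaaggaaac
Col7a1: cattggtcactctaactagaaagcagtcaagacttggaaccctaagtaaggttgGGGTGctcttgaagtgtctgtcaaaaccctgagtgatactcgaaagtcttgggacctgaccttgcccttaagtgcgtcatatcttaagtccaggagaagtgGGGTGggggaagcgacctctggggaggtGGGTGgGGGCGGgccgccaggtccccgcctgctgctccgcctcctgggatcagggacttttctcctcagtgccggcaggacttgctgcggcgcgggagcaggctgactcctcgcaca
The Col7a1 window was 58.7% G and C and held 1 Sp1 match, 61 bases before the start site, with 3 KLF matches. The Col17a1 window was 46.3% G and C and held 0 Sp1 matches and 2 KLF matches. Over the 32851 promoter windows of the reference, 35.7% held an Sp1 match, 57.5% a KLF match, 72.3% an E-box (CANNTG) and 70.2% a match to the p53 family core motif. Both windows held the p53 family core, and Col17a1 held an E-box while Col7a1 held none. The AP-1 motif TGANTCA, present in 7.81% of windows, was in none of the 8 windows of the 5 genes. These matches describe the letters in the windows and no binding was measured.

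The question of what each drug did to the whole junction was addressed by counting the genes that moved in each direction, beside the share of all 24674 genes that did so. These shares include genes averaging under 1 TPM, whose fold changes are understated on this scale, while all 9 genes averaged 1 TPM or more. The medians over all genes use only the 13345 at that level. Shares among those 13345 genes are not given here and may be higher than the shares printed. With UK5099, 5 of the 9 genes rose (Itga6, Itgb4, Col17a1, Dst and Lama3), where 8.24% of all genes rose, and 2 fell (Cd151 and Col7a1), where 24.7% of all genes fell. Of these, Col17a1 was called higher, as were 0.928% of all genes, and the lowest coefficient, −0.38 of Cd151, was short of −1, which 0.912% of all genes were past. The median coefficient of the 9 genes was 0.15, beside −0.12 over all genes, and 0.31 after scaling.

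With butyrate, Col17a1 rose, as did 9.7% of all genes, and 7 of the 9 genes fell (all but Col17a1 and Dst), as did 35.9% of all genes. Cd151, Lama3, Lamb3 and Col7a1 were called lower, beside 2.42% of all genes, and the highest coefficient, 0.81 of Col17a1, was short of 1, which 1.13% of all genes were past. The median coefficient was −0.96, beside −0.30 over all genes, and after scaling it was −0.61. After scaling 3 of the 9 coefficients (Itga6, Col17a1 and Dst) were above 0 and 6 below, and Col17a1 then exceeded 1 while Cd151 and Lamb3 no longer did so in size.

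With the combination, Itga6, Col17a1 and Dst rose, beside 10.1% of all genes, and the other 6 genes fell, beside 40.8% of all genes. Col17a1 was called higher, beside 1.79% of all genes, and Cd151 and Col7a1 were called lower, beside 4.63%. The median coefficient was −0.84 as deposited, −0.41 over all genes, and −0.36 for the 9 genes after scaling. These 3 comparisons share the vehicle samples, so they are not independent of each other.

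**Figure D2:**
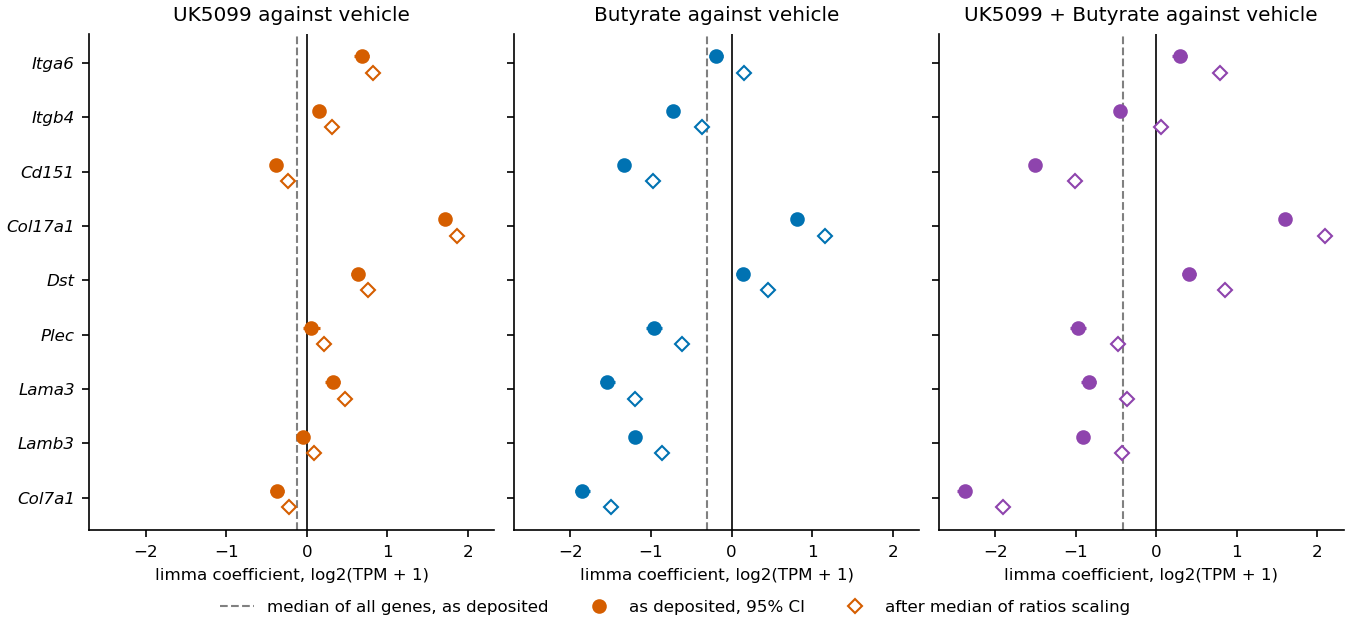
Coefficients of the 9 genes against vehicle (horizontal axis, log2(TPM + 1)) in 3 panels, with filled circles and 95% confidence intervals, often narrower than the symbol, for TPM as deposited and open diamonds after median of ratios scaling; the dashed line is the median over all genes as deposited. Col17a1 lies right of 0 and Cd151 and Col7a1 left of 0 in each panel under both scalings, while Lamb3 crosses 0 with UK5099, Itga6 with butyrate and Itgb4 with the combination.

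The effect of each drug in the presence of the other was taken from the same fit. Adding UK5099 to butyrate raised 6 of the 9 genes (Itga6, Itgb4, Col17a1, Dst, Lama3 and Lamb3), where 5.52% of all genes rose, and lowered Cd151 and Col7a1, where 22% of all genes fell. The highest coefficients were 0.79 for Col17a1 and 0.70 for Lama3, the lowest was −0.53 for Col7a1, and the coefficient of Cd151, −0.18, did not pass after scaling (−0.04, adjusted p = 0.388). Adding butyrate to UK5099 lowered all 9 genes as deposited, where 35.3% of all genes fell, and 4 (Cd151, Plec, Lama3 and Col7a1) were called lower, beside 1.15% of all genes. After scaling, 7 of the 9 coefficients remained below 0, with Col17a1 at 0.23 and Dst at 0.10, and Itga6 at −0.04 did not pass (adjusted p = 0.406).

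The drugs were also compared directly. All 9 genes were lower with butyrate than with UK5099, where 27.5% of all genes were lower, and all 9 coefficients stayed below 0 after scaling. Lama3 (−1.86), Col7a1 (−1.48), Lamb3 (−1.15) and Plec (−1.02) were called, beside 1.18% of all genes. The Lama3 values were 28.3 to 30.7 TPM with UK5099 against 7.26 to 7.59 TPM with butyrate. The smallest difference was that of Dst, at −0.50 as deposited and −0.31 after scaling.

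Whether the combination equalled the sum of the single drugs was tested by the interaction term. Its median over all genes was 0.0 as deposited, so scaling could hardly move it. The 9 interaction coefficients had the same signs after scaling, which therefore adds nothing. Lama3 (0.37 ± 0.057, adjusted p = 0.00147), Lamb3 (0.34 ± 0.043, adjusted p = 0.000408) and Cd151 (0.20 ± 0.04, adjusted p = 0.00696) were higher with the combination than the sum, where 7.01% of all genes were. The Cd151 interaction missed the threshold in 14 of 22 alternative settings. Col17a1 (−0.93 ± 0.043, adjusted p = 1.03e-06) and Dst (−0.36 ± 0.051, adjusted p = 0.000944) were lower than the sum, where 6.38% of all genes were. For Lama3 the UK5099 coefficient was 0.32 without butyrate and 0.70 with it, and for Lamb3 it was −0.05 without and 0.29 with butyrate. For Col17a1 it was 1.72 without butyrate and 0.79 with it. The interaction did not pass for Itga6 (−0.20, adjusted p = 0.0372), Itgb4 (0.13, adjusted p = 0.0677), Plec (−0.06, adjusted p = 0.599) or Col7a1 (−0.16, adjusted p = 0.06).

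**Figure D3:**
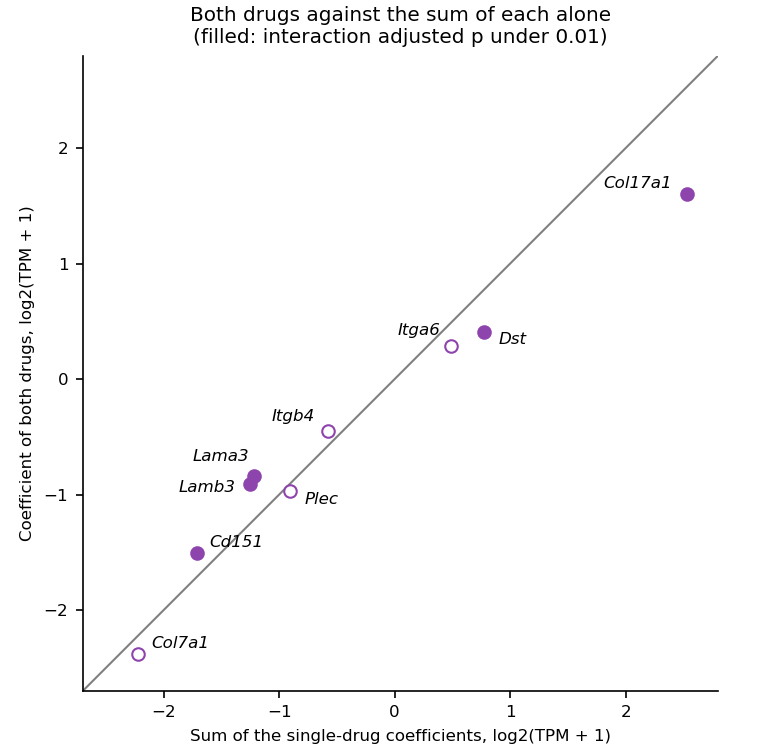
Coefficient of the combination (vertical axis) against the sum of the UK5099 and butyrate coefficients (horizontal axis), both in log2(TPM + 1), with 1 point per gene and a line of equality; filled points had an interaction adjusted p-value under 0.01. Col17a1 and Dst lie below the line and Lama3, Lamb3 and Cd151 above it.

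Ratios of 2 genes within a culture do not depend on scaling between samples, and 6 pairs were taken after the values had been seen. The ratios use exonic-length levels, so their size depends on the lengths used, while their fold change between groups does not. With 3 samples against 3 the smallest p that an exact permutation test allows is 0.1. The Itga6 to Itgb4 ratio was 0.484 ± 0.00129 in vehicle, 0.703 ± 0.0151 in UK5099, 0.702 ± 0.00797 in butyrate and 0.812 ± 0.00922 in combination samples (SD, n = 3 each). The α6 transcript was thus more abundant relative to β4 in every treated sample than in any vehicle sample, and the UK5099 and butyrate samples overlapped. The Lama3 to Lamb3 ratio was 0.715 ± 0.00427 in vehicle, 0.938 ± 0.0197 in UK5099, 0.539 ± 0.00268 in butyrate and 0.744 ± 0.0148 in combination samples. It was therefore above vehicle with UK5099 and below it with butyrate, and with the combination it was 1.04 times the vehicle mean.

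The Dst to Plec ratio went from 0.270 ± 0.00486 in vehicle samples to 0.425 ± 0.00876 after UK5099, 0.593 ± 0.0121 after butyrate and 0.737 ± 0.0181 after both. The Col17a1 to Col7a1 ratio had the widest range, from 2.05 ± 0.0334 in vehicle samples to 8.86 ± 0.062 after UK5099, 13.5 ± 0.387 after butyrate and 34.8 ± 0.495 after both, 17.0 times the vehicle mean. Col17a1 to Itgb4 went from 0.460 ± 0.00469 to 1.38 ± 0.00441, 1.35 ± 0.0148 and 1.92 ± 0.00904 in the same order of groups. Cd151 to Itga6 went down from 0.675 ± 0.0157 to 0.321 ± 0.0139, 0.306 ± 0.00684 and 0.192 ± 0.0107. The treated and vehicle samples did not overlap in these 18 comparisons, nor in 106 of the 108 (98.1%) over all 36 pairs of the 9 genes, so separation is not particular to the pairs chosen. Each two-sided exact permutation p was 0.1, before and after Benjamini-Hochberg adjustment over the 18. This value follows from the absence of overlap and adds nothing to it. Pairs of genes outside the 9 were not compared.

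**Figure D4:**
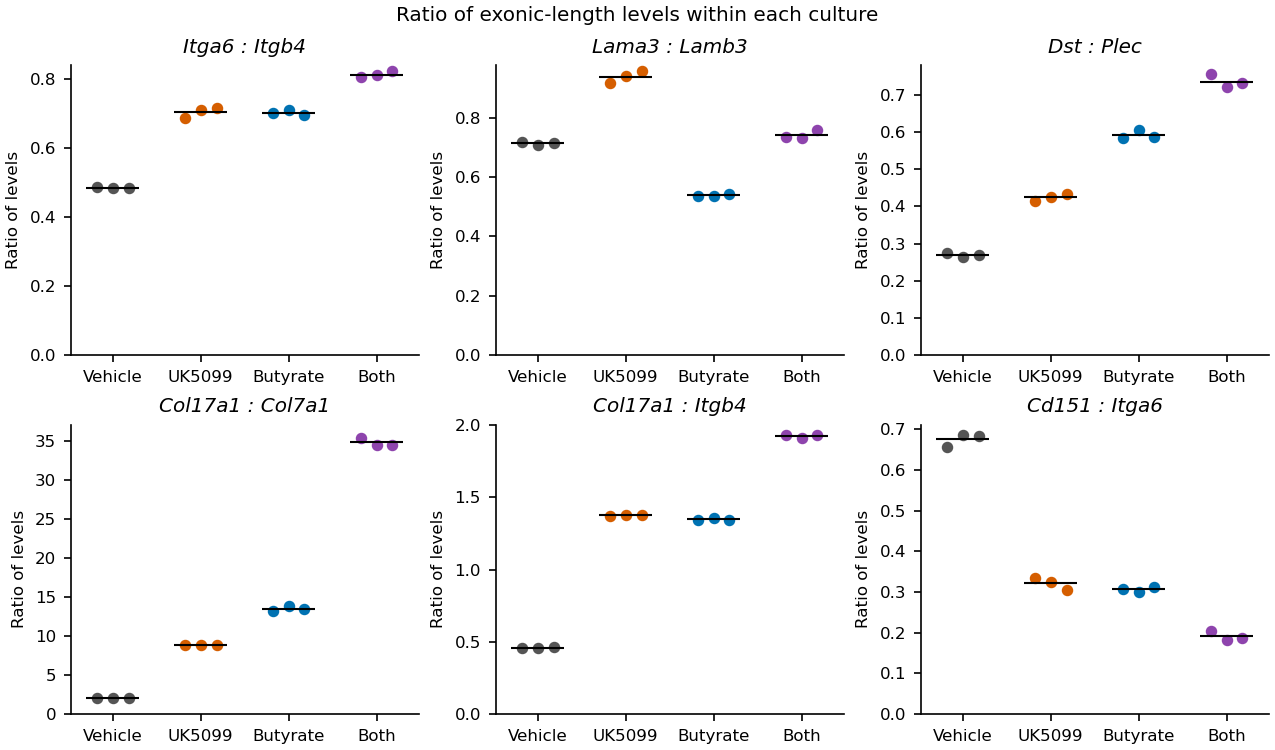
Ratio of the exonic-length levels of 2 genes in each culture (vertical axis, from 0) for 6 pairs, with 1 point per culture and a line at the mean of 3; "Both" is the combination. The Col17a1 to Col7a1 ratio lies near 2.05 with vehicle and near 34.8 with the combination, and the Lama3 to Lamb3 ratio is the one that goes up with UK5099 and down with butyrate.

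The 9 genes followed a few patterns over the 12 samples, which are given as descriptions because the samples of a group share their treatment. Pearson's r of log2(TPM + 1) was 0.97 for Lama3 with Lamb3, 0.99 for Cd151 with Col7a1 and 0.98 for Plec with Lamb3. It was −0.47 for Col17a1 with Cd151 and −0.43 for Col17a1 with Col7a1, the lowest of the 36 pairs. The protein-coding genes with the most similar pattern to Col17a1 were Has3 (r = 0.998), the basal keratin Krt5 (0.995) and Vsnl1 (0.995). For Itga6 they were Oaf (0.994), Cast (0.993) and Artn (0.992), and for Dst they were Map2k6 (0.990), Camsap2 (0.990) and the desmosomal plakin Dsp (0.988). For Itgb4 they were Scin (0.997), Cd44 (0.997) and Axl (0.996), and for Lama3 Cd44 (0.999), Scin (0.998) and Axl (0.995). For Lamb3 they were Actn1, Tnc and Cald1 (0.999 each), and for Plec Ptpn9 (0.998), Myof (0.997) and Prpf39 (0.997). Cd151 came nearest to Uba1, Tpm3 and Plekhg3 (0.998 each) and Col7a1 to Nup153, Prag1 and Rhbdf1 (0.999 each). These last patterns were common, since 3005 protein-coding genes had r over 0.95 with Cd151 and 2967 with Col7a1, beside 100 with Col17a1 and 48 with Dst.

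Genes around the junction were counted from lists of related proteins, beside the shares of all genes given above. Of the 7 other laminin chains in the table, 4 fell with butyrate, beside 35.9% of all genes, while Lamb2 rose (0.29, adjusted p = 0.000141). Lama4, among those that fell, averaged under 1 TPM. The coefficients of Lamb1 were −1.3 for butyrate and −1.56 for the combination. Lama5, an α chain of many epithelial basement membranes, was at −1.08 with the combination as deposited and at −0.58 after scaling. The 4 chains above 1 TPM had a median coefficient of −0.45 for UK5099, −0.71 for butyrate and −1.07 for both, and of −0.30, −0.37 and −0.59 after scaling. Of 14 other integrins, 6 fell with UK5099, beside 24.7% of all genes. The highest UK5099 coefficient, 0.17 for Itgb7, did not pass (adjusted p = 0.0582). With butyrate 9 fell, beside 35.9%, and 3 rose, beside 9.7%. The 3 that rose (Itga1, Itga7 and Itgb7) averaged under 1 TPM, as did Itga8 and Itgb8 among those that fell. The 7 integrins with at least 1 TPM had a butyrate median of −1.12, and −0.77 after scaling, beside −0.96 and −0.61 for the 9 genes. With butyrate the collagen receptor subunit Itga2 was at −2.24, Itgb6 at −1.52 and Itgav at −1.25. For comparison, Itga6 and Itgb4 had UK5099 coefficients of 0.68 and 0.15, where the other integrins with at least 1 TPM had a median of −0.27, and after scaling these were 0.82, 0.31 and −0.11.

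Among 13 adapters of focal adhesions, the other class of integrin junction, 12 fell with butyrate, beside 35.9% of all genes, and Kank1 rose (0.47, adjusted p = 5.18e-07). Kank1 averaged under 1 TPM, as did Tln2 among those that fell. The coefficients of Fermt1, which encodes an activator of integrins, were −2.28 for butyrate and −2.43 for the combination, and those of integrin-linked kinase (Ilk) were −1.94 and −2.42. The adapters above 1 TPM had a median coefficient of −0.26 for UK5099, −0.87 for butyrate and −1.05 for both, and of −0.11, −0.54 and −0.64 after scaling. Of 12 listed proteases, chosen as known or related to those that process laminin-332, collagen VII or collagen XVII, 8 fell with UK5099, beside 24.7% of all genes, and 10 with butyrate, beside 35.9%. The 10 proteases with at least 1 TPM had a butyrate median of −1.05, and −0.7 after scaling. With butyrate Mmp9 was at −3.52, Plau, which encodes urokinase, at −1.75, and Bmp1, which trims laminin-332 and procollagen VII, at −1.33. Of 17 other basement membrane genes, 8 fell with butyrate and 1 rose, beside 35.9% and 9.7% of all genes. Fras1, which rose, averaged under 1 TPM, as did Frem2, which fell. The 7 with at least 1 TPM had a butyrate median of −0.95, and −0.61 after scaling. Among the 17, nephronectin (Npnt), a ligand of integrin α8β1, fell most, with coefficients of −1.99 for UK5099, −2.48 for butyrate and −3.16 for both.

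The other plakins also moved in both directions. The desmosomal plakin Dsp, envoplakin (Evpl) and periplakin (Ppl) rose with UK5099 by 0.87, 1.86 and 0.65 and with butyrate by 0.25, 1.40 and 0.38, while Macf1 (−0.73) and Eppk1 (−1.02) fell with butyrate. The basal keratins, to which the plakins attach, rose with UK5099 in 3 of 4 cases, beside 8.24% of all genes. Krt14 (1.59) and Krt5 (1.42) rose most. With butyrate Krt5 rose (0.77) and the other 3 fell as deposited, beside 9.7% and 35.9% of all genes. Krt17 was at −1.03, but after scaling Krt14 and Krt15 were at 0.09 and 0.04. Of the 12 tetraspanins, 3 rose and 5 fell with butyrate, beside 9.7% and 35.9% of all genes, with Cd82 lowest at −1.34, and their median with butyrate was −0.27 as deposited and 0.09 after scaling. The list of other dermal-epidermal (skin) proteins held 6 genes. Krt10 (5.03 with UK5099) and Krt1 (1.83), keratins of differentiated epidermis rather than of the junction, rose in all 3 comparisons. Klhl24 fell in all 3. With UK5099 the scaled coefficient of Klhl24 was only −0.04.

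**Figure D5:**
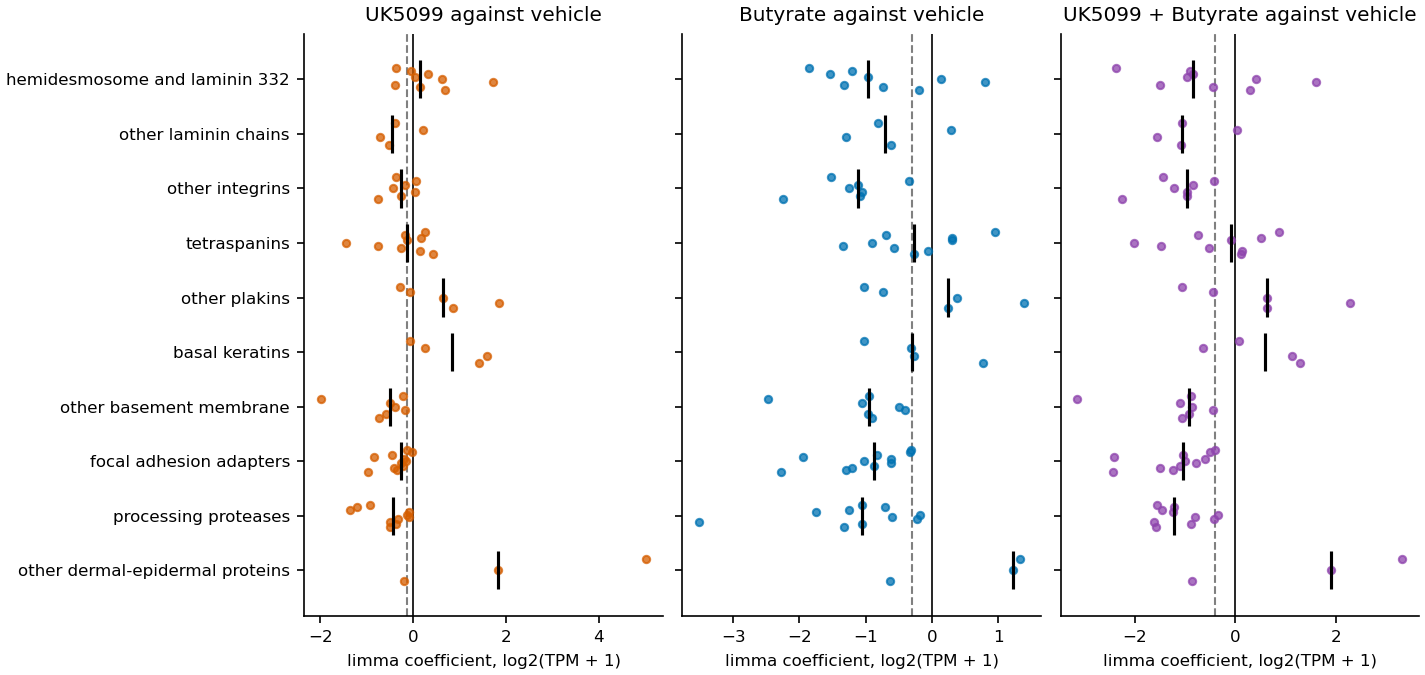
Coefficients of single genes averaging 1 TPM or more (horizontal axis, log2(TPM + 1); the panels differ in scale) for 10 gene lists in 3 comparisons with vehicle, with a vertical bar at each list's median; the dashed line is the median over all genes. With butyrate the medians of the 9 genes and of the other laminin chains, integrins, basement membrane genes, adapters and proteases lie left of the dashed line. Those of the other plakins and the other dermal-epidermal proteins lie right of 0.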

How the data were processed

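RNA-seq was carried out on 12 organoid samples in 4 groups of 3, with groups taken from the sample labels. Per the labels, total RNA was depleted of ribosomal RNA, enriched for mRNA and marked for strand, and the submitters' processing notes name STAR 2.7.9a, Partek and GRCm39. The study's methods name fastp, another version of STAR, GRCm38 and RSEM. The authors deposited TPM for 24674 genes. The table names no build, GENCODE start and end on GRCm38 were found for 2.01% of its genes, and its coordinates were kept apart from the reference. The TPM behave as fragments divided by the genomic span of a gene, as the listed length is stop minus start in 100% of genes. Of protein-coding values under 1000 fragments, 75.5% to 76.8% came out as whole fragments (tolerance 0.02), which gave the depth; whether fragments were shared between genes could not be assessed for the 9 genes. Whether counting used strand is not given in the sources used here.

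limma 3.58.1 in R 4.3.3 was fitted to log2(TPM + 1) over all genes and 12 samples with UK5099, butyrate and interaction terms, as in the study's methods, with empirical Bayes moderation and Benjamini-Hochberg adjustment. A fold change on this scale understates that of low genes. The pseudocount of 1 was chosen here. Exonic lengths from GENCODE covered 23913 genes (96.9%). Named genes were the 9 members, at most 3 called genes at each end of a list, and the 3 most similar protein-coding genes averaging 1 TPM or more; genes of small lists outside this rule were named after their values were seen. The members and lists were chosen with earlier results of these data known. 1 laminin chain and 1 luminal marker are not reported here. Fits were tested on simulated data. Alternatives were pseudocounts of 0.01 and 0.1, dropping genes averaging under 1 TPM, scaling by median of ratios or quantiles, exonic length, voom on recovered fragments, nuclear protein-coding genes alone, a trended prior, the replicate number as block, leaving out single samples, fits of 6 samples and other thresholds. Python 3.11.15, numpy, pandas, scipy and matplotlib were used for the rest.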

Additional observations from a re-analysis of the deposited data

Results flagged for a closer look

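For 5 of the 9 genes the UK5099 effect differed between cultures with and without butyrate by the interaction term of limma (adjusted p under 0.01). Over all 24674 genes the term passed with a positive sign in 7.01% and with a negative sign in 6.38%. The interaction was −0.93 for Col17a1, −0.36 for Dst, 0.37 for Lama3, 0.34 for Lamb3 and 0.20 for Cd151, on the log2(TPM + 1) scale. Col17a1 and Dst rose with UK5099 with and without butyrate, and rose less with it. Lama3 rose more with butyrate present, the Lamb3 coefficient was −0.05 without butyrate and 0.29 with it, and Cd151 fell less with butyrate. The Cd151 interaction missed the threshold in 14 of its 22 alternative settings, in which it lay between 0.17 and 0.24, while those of the other 4 genes passed in each of theirs. The groups hold 3 samples each, so no single sample was tested as an outlier.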

How the results depend on the processing

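The 63 coefficients of the 9 genes in 7 comparisons were refitted under each alternative, which gave 1440 values. Of these, 1360 kept their direction and side of the threshold, 43 no longer passed, 15 newly passed and 22 changed sign. Many of the values could not change sign. Dropping genes under 1 TPM, the trended prior, the replicate block and the fits of 6 samples leave a coefficient unchanged. So does leaving out a sample of a group outside the comparison. In these settings only the adjusted p-value could move, so the 1360 are not as many separate checks of direction. Under median of ratios scaling the sign changed for Lamb3 with UK5099 (0.09), Itga6 with butyrate (0.16), Itgb4 with the combination (0.06), Plec on adding UK5099 to butyrate (0.14), and Col17a1 (0.23) and Dst (0.10) on adding butyrate to UK5099. Quantile normalisation gave 0.06 for Lamb3, 0.16 for Itga6, and 0.09 each for Plec, Col17a1 and Dst in the same comparisons, and voom on fragments gave 0.02, 0.12, 0.06, 0.18 and 0.05. With nuclear protein-coding genes alone Col17a1 was at 0.09 and Plec at 0.03. Plec, near 0 on adding UK5099 to butyrate, was also at 0.00 with exonic length and between −0.04 and 0.05 when single samples were left out, above 0 without butyrate replicate 1 or 3 or combination replicate 1.

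Scaling set some counts of called genes. The shares of all genes called under these other settings and limits are not given here. The counts below therefore show only how the calls depended on the processing. Adding butyrate to UK5099 called 4 genes as deposited but 1 under median of ratios, quantile normalisation, voom and protein-coding genes alone, and butyrate against UK5099 called 4 but 2 under the first 3 of these. Quantile normalisation called 1 gene for the interaction, Col17a1, where 0 were called at a size over 1 as deposited. With the coefficient limit at 0.5, the counts were 3 with UK5099, 7 with butyrate, 6 with the combination, 3 on adding UK5099, 8 for butyrate against UK5099 and 1 for the interaction. Over the related lists, genes called with butyrate went from 26 to 40 with a pseudocount of 0.01, 16 under median of ratios and 15 under quantile normalisation, and with the limit at 0.5 the lists held 21, 45 and 52 called genes for the UK5099, butyrate and combination comparisons in place of 9, 26 and 29. Leaving out single samples gave 3 to 4 called members on adding butyrate to UK5099 and for butyrate against UK5099. Where a scaling changed a call, the cause was not tested.

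Replicate numbers did not pair the samples. Deviations of same-numbered samples correlated between −0.107 and 0.029, and with the replicate block the counts of called genes were again 1 for UK5099, 4 for butyrate and 3 for both; with the block the Cd151 interaction (0.20) no longer passed. All 9 genes had at least 2910 fragments per sample, so depth limited their values little. Leaving out single samples, an alternative added after seeing the data, turned the direction of none of the 18 ratio comparisons. That outcome follows from the absence of overlap in all 18 and adds nothing to it.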
